A study of Mus musculus with 8 samples.

Results

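Tmem119, Fcrls, Olfml3, Siglech and Cx3cr1 encode surface and secreted proteins that are used as markers of microglia, the resident macrophages of brain and retina. These 5 genes were chosen by name out of the 22549 gene symbols measured in 8 mRNA libraries of mouse retina. All 5 had a value in every library, and all 5 passed the filter on low values (1 FPKM or more in 4 or more libraries), as did 9352 genes in all. FPKM counts sequenced fragments relative to transcript length and library size, so levels can be set beside each other between genes.

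The labels call 4 libraries microglia (numbered 1 to 4, with titles that start with cont) and 4 libraries infiltrating macrophages (numbered 5 to 8, with titles that start with GFP). Every library was made from retina taken 7 days after injury, and the mice were about 5 months old with a mixed background of C57BL/6 and 129. All mice, in both groups, were Msi1-CreERT2/+; R26R-DTA/+. Msi1-CreERT2 is a Cre recombinase that tamoxifen switches on, driven from the Musashi1 gene. R26R-DTA is a Cre-dependent diphtheria toxin A allele that kills the cells in which Cre is active. No group lacks these alleles, and every library is from 7 days after injury, so no uninjured level is at hand. No GFP allele is named in the genotype, and neither the meaning of GFP in the titles nor the sorting of the cells is given in the sources used here. Separate animals behind the libraries are not stated either, so the p-values speak only for the spread among these libraries, which may be technical. The question addressed is whether levels of these marker genes differ between resident and infiltrating cells of 1 injured tissue.

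Microglia arise from the embryonic yolk sac and persist by self-renewal, while most macrophages that enter injured neural tissue come from blood monocytes. Microglia are recognised by a set of genes that depends on TGF-beta and CSF1 receptor signalling in the tissue, and Tmem119, P2ry12 and Sall1 are among its usual members. Monocyte-derived cells that stay in neural tissue can take on part of that set, and Cx3cr1 is also made by blood monocytes.

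Sums of FPKM ran from 207154 to 512101 per library, and between 5995 genes (microglia 2) and 10287 genes (macrophage 8) reached 1 FPKM. The sum of 4 Y-linked genes was 11.7 to 25.8 FPKM in microglia 1 to 3, 0.0533 in microglia 4 and 0.0107 to 1.97 in the macrophages. Xist, an RNA of the inactive X chromosome, was at 4.78 FPKM in microglia 4 and at 4.84 to 7.94 in the macrophages, and it did not exceed 0.000779 in microglia 1 to 3. Macrophage 7 held the 1.97 FPKM of Y-linked RNA and also Xist at 7.94 FPKM. Microglia 4 therefore stood with the macrophage libraries in these transcripts, and the differences are also given without microglia 1 to 3. Sex is not given in the labels, and in microglia 1 to 3 it cannot be told apart from the population. Markers followed the population labels in part. Of the microglial signature 9 of 30 tested genes were called lower in macrophages (limma, adjusted p below 0.05 over all genes tested), and of classical monocyte markers 5 of 8 were called higher, with sums that overlapped (85.6 FPKM in microglia 1 and 85.3 in macrophage 7). Sall1, a zinc finger transcription factor of microglia, was between 8.61 and 26.8 FPKM in the microglial libraries and listed at 0 in 3 of 4 macrophage libraries. Ly6c2, an antigen of inflammatory monocytes, stood at 28.6 to 495 FPKM in the macrophage libraries and at 0.0694 to 1.14 in the microglial ones.

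The loci below are those of the deposited tables, on mm9, and the exon counts are those of the longest coding transcript in GENCODE M1 on the same assembly. Tmem119 lay at chr5:114243738-114250361 on the minus strand, with 2 exons. Fcrls lay at chr3:87054887-87067446 on the minus strand, with 8 exons, and Olfml3 at chr3:103539317-103541924 on the minus strand, with 3 exons. Siglech lay at chr7:63023548-63034203 on the plus strand, with 5 exons, and Cx3cr1 at chr9:119957811-119977400 on the minus strand, with 2 exons. Fcrls and Olfml3 thus share a chromosome but are not neighbours.

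The DNA just before the start of 3 of these genes is shown because the microglial set is known to depend on TGF-beta signalling, which acts through SMAD factors. The sequences are from RefSeq on GRCm38.p6, 5′ to 3′ on the gene's strand, ending at the base before the start. Capitals mark a SMAD element, searched as CAGAC on both strands, so that GTCTG is a match on the other strand. Of the 5 genes, 4 matched the RefSeq table, and Tmem119 has no entry there. Fcrls is not shown, since only 9 bases of its window lie upstream of every annotated start.
Siglech, chr7:55767934-55768153, plus strand: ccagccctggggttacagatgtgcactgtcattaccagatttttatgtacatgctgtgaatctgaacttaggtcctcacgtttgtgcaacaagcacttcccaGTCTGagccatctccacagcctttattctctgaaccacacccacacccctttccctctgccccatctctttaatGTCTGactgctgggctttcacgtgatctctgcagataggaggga
Olfml3, chr3:103738002-103738251, minus strand: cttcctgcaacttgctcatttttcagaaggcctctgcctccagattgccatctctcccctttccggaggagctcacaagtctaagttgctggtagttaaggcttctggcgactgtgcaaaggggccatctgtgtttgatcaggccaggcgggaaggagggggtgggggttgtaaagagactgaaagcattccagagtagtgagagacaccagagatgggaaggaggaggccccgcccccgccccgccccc
Cx3cr1, chr9:120068297-120068546, minus strand: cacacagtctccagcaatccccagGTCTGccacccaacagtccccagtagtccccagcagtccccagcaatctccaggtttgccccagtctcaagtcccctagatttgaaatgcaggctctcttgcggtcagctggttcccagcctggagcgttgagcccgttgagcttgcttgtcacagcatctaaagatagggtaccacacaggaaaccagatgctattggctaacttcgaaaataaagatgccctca

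The 220 bases before Siglech held the SMAD letters at 118 and 44 bases from the start. The 250 bases before Cx3cr1 held them once, at 226 bases, and the same stretch of Olfml3 did not hold them. The letters are common: 38.3% of 27025 RefSeq windows of 220 bases and 42.1% of those of 250 bases hold CAGAC on either strand. The core letters of the macrophage factor PU.1, searched as GAGGAA on both strands, were in none of the 3 stretches and are in 20.7% of windows of 220 bases and 23.1% of windows of 250 bases. A loose MEF2 pattern, searched as CTA and TAG with any 4 bases between them, stood 67 bases before the Cx3cr1 start. There the bases between were AAGA. This loose pattern is in 3.23% of windows of 250 bases. A match says only that these letters are present.

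All 5 marker genes had a lower mean in infiltrating macrophages than in microglia, but the sizes were unequal and only Siglech passed the test. The lectin Siglech averaged 31.3 FPKM in microglia and 3.88 in macrophages, an 8.06-fold ratio of means. The secreted factor Olfml3 was lower in all 4 macrophage libraries than in any microglial library without passing the test, and Tmem119, Fcrls and Cx3cr1 overlapped between the populations. Thus 1 of the 5 was called (limma, Benjamini-Hochberg adjusted p below 0.05 over 9352 genes), beside 2.34% of all genes tested, with 1.65% called higher and 0.695% called lower in macrophages. The median log2 difference of the 5, macrophages minus microglia, was -0.87, beside 0.37 over all genes tested, of which 32.9% had a negative difference. In bulk samples, fewer cells of a type and less RNA per cell cannot be told apart.

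**Figure D1:**
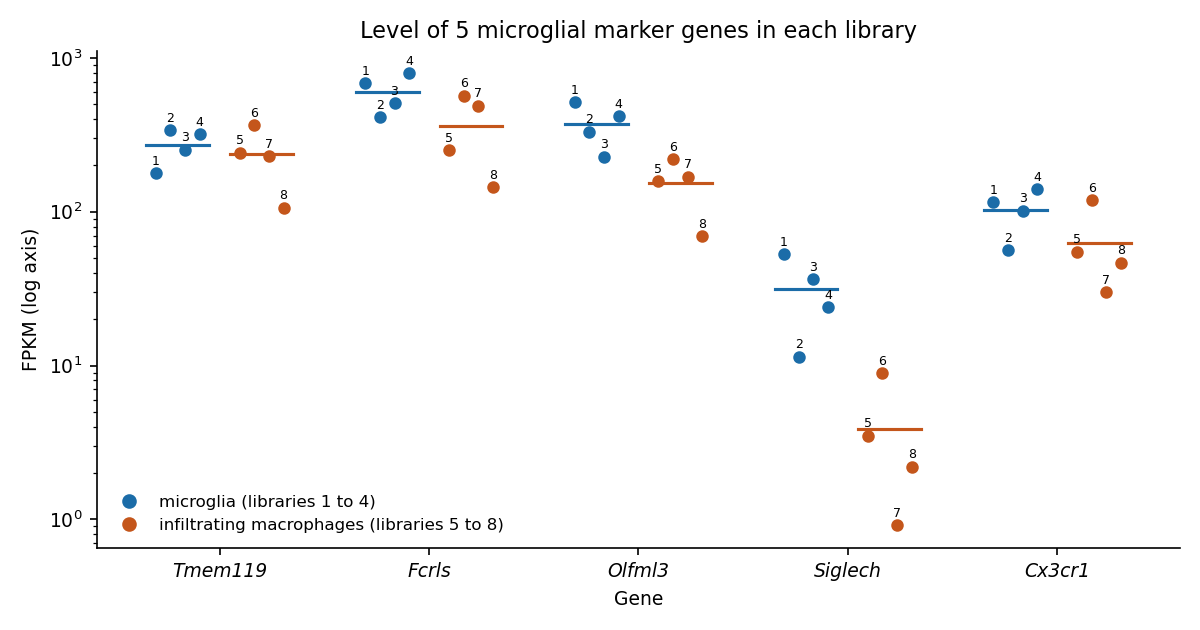
FPKM of Tmem119, Fcrls, Olfml3, Siglech and Cx3cr1 in each of the 4 microglial and 4 macrophage libraries, on a log axis; each point is a library and the bar is the group mean. Siglech and Olfml3 do not overlap between the groups, and the macrophage values of Tmem119 spread from 106 to 365 FPKM around the microglial ones.

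Siglech encodes a sialic acid-binding lectin of the cell surface, known from microglia and from plasmacytoid dendritic cells, that signals through the adaptor DAP12. It stood at 53.2, 11.4, 36.6 and 24.0 FPKM in microglia 1 to 4. The macrophage libraries 5 to 8 held 3.51, 8.89, 0.917 and 2.20 FPKM. Every microglial library was above every macrophage library, although microglia 2 and macrophage 6 lay close to each other. The means were 31.3 ± 17.8 and 3.88 ± 3.51 FPKM (SD, n = 4 each). On the log2(FPKM + 1) scale the difference was -2.79 ± 0.68 (SE; 95% interval -4.20 to -1.38; limma, adjusted p = 0.0247). The exact two-sided permutation test over the 8 libraries gave p = 0.0286, the smallest that 4 against 4 allows. Groups that do not overlap were found for 7.63% of all genes tested, and for 1.95% with macrophages lower.

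The Siglech call depended on which libraries entered and on some settings. It was kept in 14 of 23 other limma settings, with a log2 difference between -3.27 and -2.30 and an adjusted p between 2.00e-05 and 0.679. It was lost without microglia 1 (adjusted p = 0.107), microglia 3 (0.0699), macrophage 5 (0.0666), macrophage 7 (0.0624) or macrophage 8 (0.0962), and without microglia 1 to 3 together the difference was -2.62 with an adjusted p of 0.417. With Y-linked expression as a term it was -2.70 with an adjusted p of 0.679, and with a pseudocount of 0.1 FPKM or no filter on low values the adjusted p was 0.0758 or 0.215.

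Tmem119 encodes a transmembrane protein of the cell surface that is widely used to tell microglia from macrophages of the blood. Its level was 179, 339, 254 and 319 FPKM in microglia 1 to 4 and 242, 365, 230 and 106 FPKM in macrophages 5 to 8. The highest of all 8 libraries was macrophage 6 and the lowest was macrophage 8, so the groups overlapped through most of their range. Means were 273 ± 72.6 and 236 ± 106 FPKM (SD, n = 4 each), and the log2 difference was -0.29 ± 0.48 (SE; 95% interval -1.28 to 0.69; limma, adjusted p = 0.817). The interval spans a fall in macrophages of more than 1 log2 unit as well as a rise. The difference was 0.043 without macrophage 8, and 0.34 when libraries were scaled to equal pan-macrophage genes.

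Other microglial genes stood at very unequal levels in the macrophage libraries. Sall1 was listed at 0 in macrophages 5, 6 and 8 and at 0.0352 FPKM in macrophage 7. Sparc, a secreted matrix glycoprotein, was between 159 and 694 FPKM in microglia and at most 0.242 FPKM in macrophages, where it was listed at 0 in macrophages 6 and 8. In macrophage 6, where Tmem119 was at 365 FPKM, Sall1 and Sparc were both listed at 0. The same library held Trem2 at 268, Gpr34 at 49.4 and P2ry12 at 29.0 FPKM. Csf1r, which both populations carry, was at 357 FPKM there. Sall1 and Sparc are among the 9 of 30 tested signature genes that were called lower.

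Fcrls encodes an Fc receptor-like protein with a scavenger receptor domain. It was at 685, 410, 505 and 793 FPKM in microglia 1 to 4. The macrophage libraries 5 to 8 held 251, 568, 489 and 144 FPKM. Macrophages 6 and 7 lay within the microglial range, and macrophages 5 and 8 lay below it. Means were 599 ± 173 and 363 ± 199 FPKM (SD, n = 4 each), with a log2 difference of -0.87 ± 0.49 (SE; 95% interval -1.87 to 0.13; limma, adjusted p = 0.416). It was called in 1 of 23 other settings, that with libraries weighted by their quality (array weights in limma; -1.46, adjusted p = 0.00816), which called 1075 genes in all. The difference was -0.49 without macrophage 8 and -0.23 with scaling to pan-macrophage genes, neither called.

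Cx3cr1 is the receptor of fractalkine, a chemokine that neurons present on their surface and release. It stood at 115, 56.2, 101 and 140 FPKM in microglia 1 to 4. The macrophage libraries 5 to 8 held 55.0, 119, 30.1 and 46.7 FPKM. Macrophage 6 was above 3 of the 4 microglial libraries, and microglia 2 was close to macrophage 5. Means were 103 ± 35.0 and 62.8 ± 39.0 FPKM (SD, n = 4 each), with a log2 difference of -0.81 ± 0.52 (SE; 95% interval -1.90 to 0.27; limma, adjusted p = 0.482). Of 23 other settings only array weights called it (-1.10, adjusted p = 0.0460), and the difference was -0.53 without macrophage 7 and -0.19 with scaling to pan-macrophage genes.

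Olfml3 encodes a secreted glycoprotein with an olfactomedin domain. It was at 514, 332, 228 and 420 FPKM in microglia 1 to 4. The macrophage libraries 5 to 8 held 157, 221, 169 and 69.1 FPKM. The groups did not overlap, but microglia 3 and macrophage 6 were nearly level. Means were 373 ± 122 and 154 ± 62.9 FPKM (SD, n = 4 each), and the log2 difference of -1.33 ± 0.48 (SE; 95% interval -2.32 to -0.33) did not pass the test over all genes (limma, adjusted p = 0.182; exact permutation p = 0.0286). Of the 23 other limma settings only array weights called it (-1.62, adjusted p = 0.00386), and the difference was -0.98 without macrophage 8 and -0.69 with scaling to pan-macrophage genes.

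Macrophage 8 was the lowest of the 8 libraries for Tmem119, Fcrls and Olfml3, and macrophage 7 for Siglech and Cx3cr1. The 5 genes together came to 1546, 1149, 1125 and 1696 FPKM in microglia 1 to 4 and to 709, 1282, 918 and 369 FPKM in macrophages 5 to 8, so macrophage 6 lay among the microglial libraries. Microglia 4, the only microglial library that stood with the macrophages in Y-linked RNA, was above all 4 macrophage libraries for Fcrls, Olfml3, Siglech and Cx3cr1, and below macrophage 6 for Tmem119. Without microglia 1 to 3, so with microglia 4 alone against the 4 macrophage libraries and assumed to vary as they do, the log2 differences were -0.56 for Tmem119, -1.32 for Fcrls, -1.56 for Olfml3, -2.62 for Siglech and -1.32 for Cx3cr1, none of them called. In microglia 1 to 3, what goes with Y-linked RNA and what goes with the population cannot be told apart.

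Since the median gene was higher in macrophages in the main setting, the 5 genes lay lower against that median than against 0. Relative to it the log2 difference was -0.66 for Tmem119, -1.24 for Fcrls, -1.69 for Olfml3, -3.16 for Siglech and -1.18 for Cx3cr1. The median of all genes was 0.47 with equal FPKM sums, 0.27 with upper-quartile scaling, 0.17 with median-of-ratios scaling, -0.03 with quantile normalization and 0.83 with scaling to pan-macrophage genes. Fcrls, Olfml3, Siglech and Cx3cr1 kept a negative difference under all 5 scalings, and Tmem119 under all but the last. The median also moved with other choices. It was 0.099 with no filter on low values, 0.22 without microglia 2, 0.087 with a Y-linked term and 0.58 with a pseudocount of 0.1 FPKM. Relative to the median, Tmem119 was at -0.39 with no filter, -0.05 with quantile normalization and -0.87 with a pseudocount of 0.1 FPKM.

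In FPKM, the order of the 5 genes was nearly the same in every library. Fcrls was highest, Cx3cr1 the fourth and Siglech lowest in all 8. Olfml3 was above Tmem119 in microglia 1 and 4, and Tmem119 was above Olfml3 in the other 6 libraries, including all 4 of the macrophages. In microglia the means of Olfml3 (373 FPKM) and Tmem119 (273 FPKM) were closer than the SD of Olfml3, so their order there does not hold beyond the spread. By rank among 22549 symbols, Fcrls stood at 39 to 116 in microglia and at 51 to 228 in macrophages, and Tmem119 at 117 to 243 and 111 to 329. Siglech ranked from 775 to 2874 in microglia and from 5150 to 9037 in macrophages, while Cx3cr1 ranked from 301 to 899 and from 713 to 911.

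As a share of the summed FPKM of the 5 genes, Siglech made up 2.27% ± 1.25 in microglia and 0.471% ± 0.261 in macrophages (SD, n = 4 each). Olfml3 made up 26.8% ± 5.57 and 19.1% ± 2.15, and Tmem119 20.6% ± 7.50 and 29.1% ± 3.77. The other two kept nearly equal mean shares, 42.9% and 43.0% for Fcrls and 7.39% and 8.26% for Cx3cr1.

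Ratios between 2 of the genes depend little on how a library is scaled. The 10 pairs were compared on the log2(FPKM + 1) scale by exact two-sided permutation tests over the 8 libraries. In 4 pairs the ratio did not overlap between the populations: Tmem119 to Olfml3, Tmem119 to Siglech, Fcrls to Siglech and Siglech to Cx3cr1. Each had an exact p of 0.0286, the smallest possible. The Benjamini-Hochberg adjusted p over the 10 pairs was 0.0714 for each, so none passed 0.05. All but the pair of Tmem119 and Olfml3 hold Siglech, which itself did not overlap between the populations, so they are not separate results. How often pairs of other genes do not overlap was not computed.

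For every 100 FPKM of Cx3cr1 there were 46.3, 20.4, 36.1 and 17.1 FPKM of Siglech in microglia 1 to 4 and 6.37, 7.46, 3.04 and 4.71 in macrophages 5 to 8. Siglech was thus lower relative to Cx3cr1 in all 4 macrophage libraries. The difference in the ratio was -1.98 on the log2(FPKM + 1) scale and -2.38 with a pseudocount of 0.1 FPKM. For every 100 FPKM of Olfml3 there were 34.7, 102, 111 and 76.0 FPKM of Tmem119 in microglia and 154, 165, 136 and 154 in macrophages. Tmem119 was higher relative to Olfml3 in all 4 macrophage libraries, by 1.03 on the log2 scale, and this ratio varied little among them. Tmem119 and Fcrls were higher relative to Siglech by 2.50 and 1.93 on the log2(FPKM + 1) scale. With a pseudocount of 0.1 FPKM these 2 values were 2.90 and 2.33. Fcrls and Cx3cr1 showed a mean difference in their ratio of -0.05 (exact p = 0.943), but macrophage 7 had 1622 FPKM of Fcrls for every 100 of Cx3cr1 and macrophage 8 had 309, so the spread was wide.

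**Figure D2:**
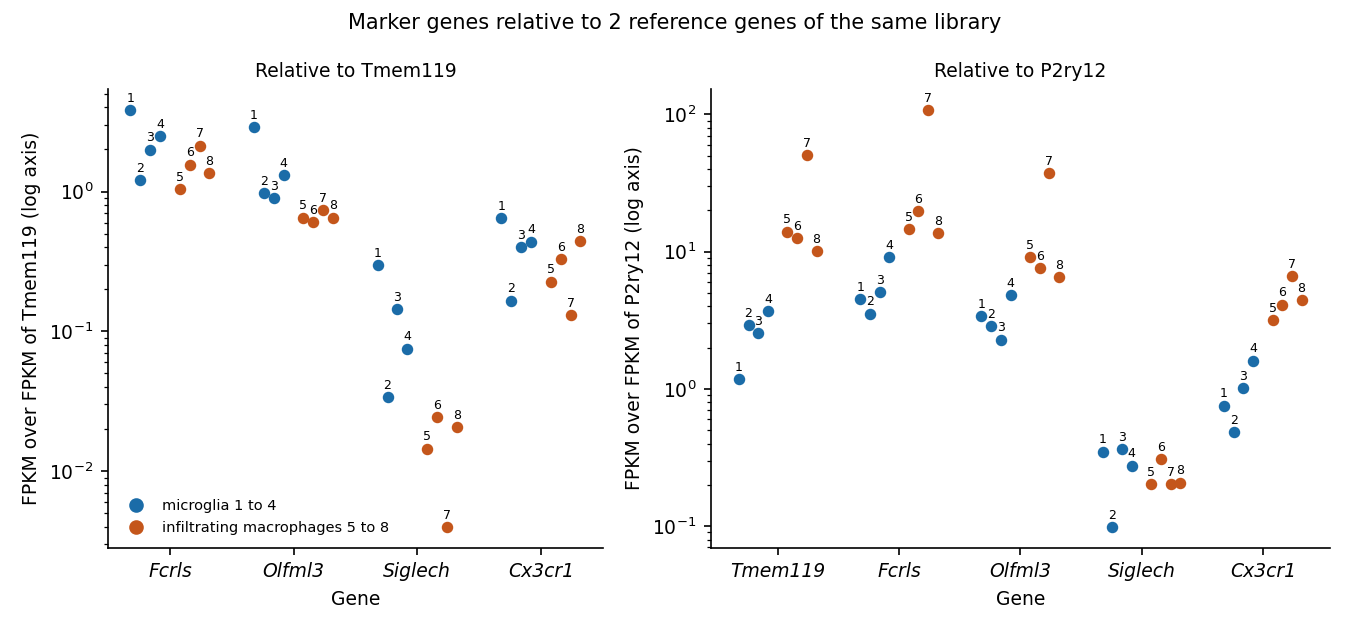
Ratio of FPKM of each gene to Tmem119 (one panel) and to P2ry12 (the other panel) in the 4 microglial and 4 macrophage libraries, on log axes; each point is a library. Relative to P2ry12, Tmem119, Fcrls, Olfml3 and Cx3cr1 are higher in every macrophage library than in any microglial library. Siglech overlaps (0.0987 to 0.366 in microglia, 0.202 to 0.307 in macrophages). P2ry12 was picked as a gene called lower in macrophages, so genes that fall less have a raised ratio by that choice.

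P2ry12, the ADP receptor of the microglial surface, served as a second reference, since it was called lower in macrophages. It was at 152, 116, 100 and 86.8 FPKM in microglia and at 17.3, 29.0, 4.54 and 10.6 FPKM in macrophages, with no overlap and a log2 difference of -3.03 ± 0.56 (SE; limma, adjusted p = 0.00254). Tmem119 was 1.17 to 3.68 times the level of P2ry12 in microglia and 10 to 50.6 times in macrophages. Fcrls was 3.54 to 9.14 and 13.6 to 108 times, Olfml3 2.28 to 4.83 and 6.53 to 37.2 times, and Cx3cr1 0.485 to 1.61 and 3.18 to 6.64 times. Siglech kept a ratio to P2ry12 that overlapped, 0.272 ± 0.122 in microglia and 0.230 ± 0.0514 in macrophages (SD, n = 4 each). These ratios are described without a test, since P2ry12 was picked as a called gene. Genes that fall less than P2ry12 have a raised ratio by that choice.

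Set against Csf1r, the CSF1 receptor that both populations carry, Tmem119 had nearly equal means: its ratio was 0.967 ± 0.380 in microglia and 0.966 ± 0.316 in macrophages (SD, n = 4 each). The ratio of Cx3cr1 to Csf1r was 0.345 ± 0.0684 and 0.242 ± 0.0683. Siglech was 0.108 ± 0.0644 of Csf1r in microglia and 0.0140 ± 0.00833 in macrophages, without overlap. Against Tyrobp, which encodes the adaptor DAP12, Siglech overlapped: the ratio was 0.00291 in microglia 2 and 0.00357 in macrophage 6.

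Among 33 other genes of the microglial signature, 30 were tested, 9 were called lower in macrophages and none was called higher, and 26 had a negative difference (median -1.30, beside 0.37 over all genes). The called genes were P2ry12, Gpr34, Sall1, Sparc, Ecscr, Gpr56, Serpine2, Ltc4s and Cd34. Their log2 differences ran from -8.65 for Sparc to -2.37 for Ltc4s, and Siglech (-2.79) lay among them. Where macrophages are near 0, as for Sparc and Sall1, this value depends on the pseudocount. Gpr34, an orphan-family G protein-coupled receptor, averaged 125 ± 70.4 FPKM in microglia and 22.7 ± 20.3 in macrophages (SD, n = 4 each). Abundant genes of the list that were not called in the main setting included Trem2, Csf1r and Selplg. Trem2, a lipid-sensing receptor that signals through DAP12, averaged 437 ± 59.3 and 176 ± 82.1 FPKM without overlap (limma, adjusted p = 0.124), and Selplg, a ligand of selectins, 270 ± 27.6 and 126 ± 53.0 FPKM without overlap (adjusted p = 0.222). Trem2 was called lower with equal FPKM sums, upper-quartile scaling, median-of-ratios scaling and array weights (limma, adjusted p from 0.00632 to 0.0461). Selplg was called lower with upper-quartile scaling, median-of-ratios scaling and array weights (limma, adjusted p from 0.0141 to 0.0225). In the list as a whole, the number called lower was between 3 and 16 under the other settings.

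**Figure D3:**
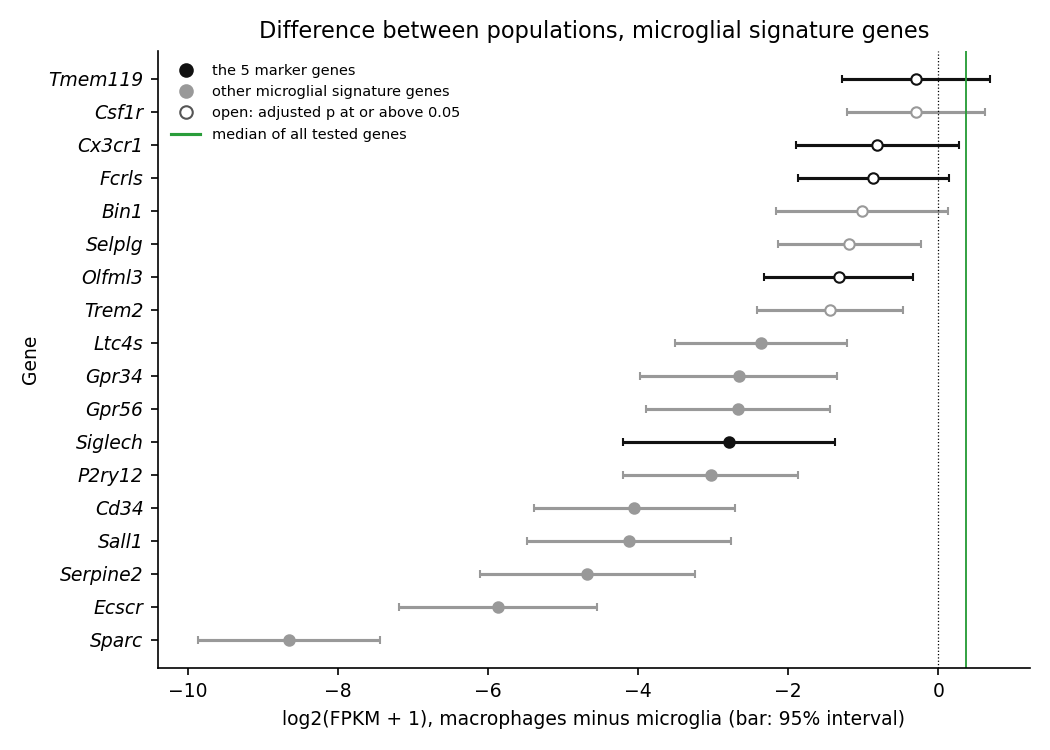
Log2 difference, macrophages minus microglia, of the 5 genes (black) and of the called and most abundant uncalled genes of the other microglial signature (grey), with 95% intervals from limma on log2(FPKM + 1); open points did not pass an adjusted p of 0.05, the dotted line marks 0 and the green line the median of all genes tested, 0.37. Siglech (-2.79, interval -4.20 to -1.38) lies among the called signature genes, the interval of Olfml3 (-2.32 to -0.33) lies below 0 without a call, and those of Fcrls, Cx3cr1 and Tmem119 cross 0.

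None of the tested genes of fractalkine or DAP12 signalling was called in the main setting. Under the other settings, up to 2 fractalkine genes were called higher in macrophages. In the list of Siglec receptors and DAP12 adaptor, up to 2 were called lower and up to 1 higher. Of 10 genes of fractalkine signalling, 8 were tested and limma called none (0 at an unadjusted p below 0.05; median 0.28). Cx3cl1, which encodes fractalkine, was under 1 FPKM in every library. Ctss, a protease that frees fractalkine, averaged 1996 ± 706 FPKM in microglia and 1951 ± 918 in macrophages (SD, n = 4 each), and Gnai2, the inhibitory G protein subunit, 110 ± 38.6 and 213 ± 101. Of 10 listed Siglec receptors and DAP12 adaptor genes, 7 were tested and limma called none (3 at an unadjusted p below 0.05; median -1.0). Tyrobp averaged 3948 ± 2035 and 1520 ± 747 FPKM with overlap (log2 difference -1.38 ± 0.48, SE; limma, adjusted p = 0.152), and Siglec1, a lectin of macrophages, 16.4 ± 17.9 and 18.8 ± 16.7 FPKM. Siglech was the only Siglec gene tested that passed in the main setting.

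Of 10 Fc receptor-like and Fc receptor genes besides Fcrls, 7 were tested and limma called none (3 at an unadjusted p below 0.05, median -0.01). Up to 2 of them were called higher under the other settings. Fcer1g, the shared signalling chain of Fc receptors, averaged 2222 ± 863 FPKM in microglia and 1079 ± 546 in macrophages (SD, n = 4 each; log2 difference -1.08 ± 0.47, SE; limma, adjusted p = 0.282). Of 8 other genes with an olfactomedin domain, 2 were tested, and Olfm1 was called higher in macrophages, opposite in direction to Olfml3. Olfm1 was at 0, 0, 0.646 and 5.73 FPKM in microglia 1 to 4, against 34.9, 28.0, 2.92 and 32.7 FPKM in macrophages 5 to 8, so macrophage 7 lay below microglia 4 (log2 difference 3.40 ± 0.82, SE; limma, adjusted p = 0.0233). Of 16 listed genes of TGF-beta and CSF1 receptor signalling, 11 were tested and limma called none (2 at an unadjusted p below 0.05, median 0.22). Up to 1 of them was called lower under the other settings. Tgfbr2, the type II receptor of TGF-beta, averaged 51.8 ± 18.9 and 32.0 ± 24.0 FPKM, and Lrrc33, which anchors latent TGF-beta, 30.7 ± 14.1 and 43.2 ± 20.9.

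Markers shared by all macrophages were mostly lower in the macrophage libraries as well, without a call in the main setting. Of 13 tested pan-macrophage genes limma called none (5 at an unadjusted p below 0.05). A negative difference was found for 11, and the median was -0.82, close to that of the 5 marker genes. Under the other settings, up to 4 pan-macrophage genes were called lower and up to 1 higher. Their sums ran from 17424 to 24569 FPKM in microglia and from 6777 to 21285 in macrophages, lowest in macrophage 8. C1qb, a chain of complement C1q, averaged 7170.1 ± 1245 and 4115 ± 2182 FPKM (SD, n = 4 each). With libraries scaled to equal pan-macrophage genes, Siglech was still called (-2.30; limma, adjusted p = 0.0301), and the differences were -0.69 for Olfml3, -0.23 for Fcrls and -0.19 for Cx3cr1, none of them called.

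**Figure D4:**
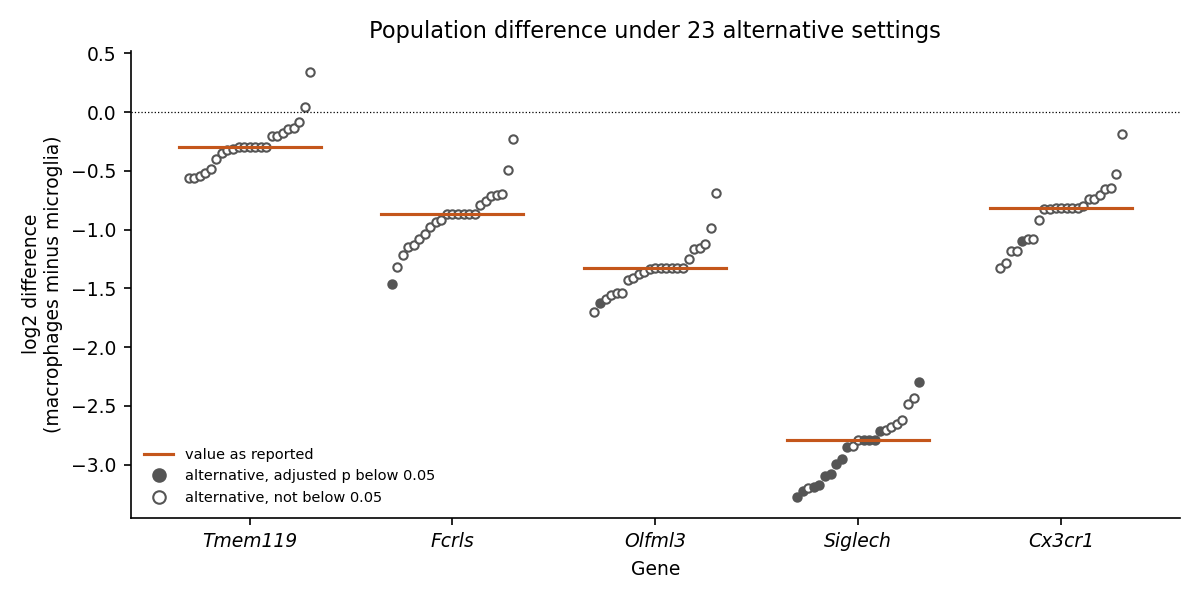
Log2 difference, macrophages minus microglia, of each of the 5 genes under the main setting and the 23 other limma settings; each point is a setting, and filled points passed an adjusted p of 0.05. Siglech stays between -3.27 and -2.30 and is called in 14 of the 23, and Tmem119 ranges from -0.56 to 0.34 and is called in none.

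Several of these genes are also made by other cells, and markers of those cells were read in the same libraries. Of plasmacytoid dendritic cell markers, which bear on Siglech, 7 of 13 were tested and limma called none (0 at an unadjusted p below 0.05; median -0.05). Their sums were 389 to 794 FPKM in microglia and 359 to 1526 in macrophages, mostly from Bst2, an interferon-induced gene of many cells. Of the 13, only Klk1 and Dntt were under 1 FPKM everywhere, and Ly6d was listed at 0 in 7 libraries. Of the 7 tested, 4 had a negative and 3 a positive difference. Of monocyte markers, which bear on Cx3cr1, 5 of 8 tested classical genes were called higher in macrophages, and 7 had a positive difference. Sums of the classical markers were 25.4 to 85.6 FPKM in microglia and 85.3 to 1113 in macrophages. Of 7 tested non-classical genes, 2 were called higher and 6 had a positive difference (sums of 5.74 to 15.7 and 34.2 to 94.4 FPKM).

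Of 7 tested markers of border-associated macrophages, 2 were called higher in macrophages and 6 had a positive difference. Sums of these markers were 103 to 203 FPKM in microglia and 155 to 687 in macrophages. Itgax, of dendritic and activated cells, was the only gene called, higher in macrophages, of 4 tested conventional dendritic cell genes. Of these 4, 3 had an unadjusted p below 0.05 (limma), none of them lower (sums of 8.89 to 27.1 and 45.0 to 201 FPKM). Neutrophil markers summed to 27.3 to 36.4 and 57.5 to 259 FPKM. Of 5 tested, 3 were called higher and 5 had an unadjusted p below 0.05 (limma), 1 of them lower. S100a8, the most abundant of them, was listed at 0 in all 4 microglial libraries and at 22.0 to 92.0 FPKM in macrophages, and Ngp was listed at 0 in all 8. The part of these cells in the results on the 5 genes was not tested.

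Markers of retinal cells had no call in the main setting. Under the other settings, up to 4 photoreceptor genes and up to 2 other retinal genes were called lower in macrophages. Photoreceptor genes came to 21.4 to 133 FPKM in microglia and 3.17 to 51.7 in macrophages, with overlap (0 of 5 tested genes called by limma, 1 at an unadjusted p below 0.05). Genes of other retinal neurons and Müller glia came to 59.2 to 80.8 and 14.1 to 31.7 FPKM, without overlap. Of 3 tested, 0 were called and 2 had an unadjusted p below 0.05 (limma). They were led by Glul, glutamine synthetase of Müller glia (limma, adjusted p = 0.0504). Glul was called lower under all 5 scalings (limma, adjusted p from 0.0146 to 0.0497). It was not called without microglia 2 and 3 (0.102) or with a Y-linked term (0.747). Red blood cell genes summed to 160, 165, 2437 and 0.683 FPKM in microglia 1 to 4 and to between 0.693 and 23.7 in macrophages. Tmem119 is also known from bone-forming cells, and 6 of 7 osteoblast markers were under 1 FPKM everywhere. Olfml3 is known from mural cells and fibroblasts too: 8 of 12 of their markers were under 1 FPKM everywhere, Pdgfrb was listed at 0 in all 8 libraries, and Cspg4 was the only call, lower in macrophages. T, B and NK cell genes and endothelial genes had no call among 1 and 2 tested (0 at an unadjusted p below 0.05). Immediate early genes, which handling of cells can induce, summed to 179 to 406 FPKM in microglia and 316 to 747 in macrophages. None of 8 tested was called in the main setting, with 5 at an unadjusted p below 0.05 (limma), all higher in macrophages. Up to 5 were called higher under the other settings. What these transcripts contribute to the 5 genes was not tested.

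Over the 8 libraries, the 5 genes varied together to unequal degrees. The Pearson r of log2(FPKM + 1) was highest for Fcrls with Olfml3 (0.88) and Siglech with Cx3cr1 (0.85) and lowest for Tmem119 with Siglech (0.27). The points share the libraries and the population difference, so these values describe the libraries and carry no p. The genes most like Siglech were Gnas, the stimulatory G protein subunit (r = 0.98), Ctsl, a lysosomal protease (0.97), and Tmem132a (0.96). Ctsl averaged 313 ± 81.1 FPKM in microglia and 55.4 ± 26.8 in macrophages (SD, n = 4 each). It was called lower in macrophages, with a log2 difference of -2.54 (limma, adjusted p = 0.00295).

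Cx3cr1 was most like Pde6d (r = 0.99), Atp6v1c1, a subunit of the proton pump of lysosomes (0.97), and Csf1r (0.96). Fcrls was most like Lrrc3 (0.98), Pecr (0.96) and Ptgs1, cyclooxygenase 1 (0.94). Olfml3 was most like Gas6, a ligand of TAM receptors (0.96), 6230427J02Rik (0.94) and Ch25h, cholesterol 25-hydroxylase (0.93). Ch25h averaged 108 ± 32.8 FPKM in microglia and 30.1 ± 28.2 in macrophages (SD, n = 4 each; limma, adjusted p = 0.0527). Tmem119 was most like Pdhx (0.90), Mrps11 (0.90) and Cox4i1 (0.89), all 3 with products in mitochondria, and none of these was called between the populations (log2 differences of -0.44, -0.89 and -0.39, adjusted p from 0.556 to 0.813). None of the other 4 marker genes was among the 3 most alike for any of the 5.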

How the data were processed

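The deposited tables hold, per the file headers, FPKM values with the bounds of a confidence interval, a status and a locus for each gene. The submitters' processing notes name Cufflinks 2.1.1, bcl2fastq 1.8.4 and the mm9 build; aligner and annotation: not given in the sources used here. Depth is unknown, so precision rests on the spread between libraries. The authors' interval had a relative width on either side of between 1.55% and 5.31% for 4 of the genes and up to 28.3% for Siglech, but 30 of 40 values lay above their own interval, so it was not used. Rows sharing a symbol were summed, and 9 symbols with a failed status were left out. Strand is not stated.

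Groups follow the subtype in the labels. Values of both groups, as log2(FPKM + 1), entered limma 3.58.1 (R 4.3.3) without a covariate and with its intensity trend. Tests were two-sided, with Benjamini-Hochberg adjustment over the 9352 genes that reached 1 FPKM in at least 4 libraries. This scale understates the change of low genes. Genes with an adjusted p below 0.05 are called. Exact permutation tests used scipy 1.17.1, with Python 3.11.15, pandas 2.3.3 and numpy 2.4.6. Before use, limma was tested on simulated data. FPKM corrects for length and library size but not for composition. Named are the 5 genes, called and the 4 most abundant uncalled signature genes, the 3 most abundant of each pathway or family list, 1 per marker list and the 3 most alike per gene (61 genes). Those given no value in the text are covered by the counts of their lists. Also named, with their values known, are Cx3cl1, Klk1, Dntt, Ly6d, Ngp, Pdgfrb, Cspg4 and Xist. A gene of the signature list is not reported here and was taken out of that list. The genes and lists were chosen with earlier results of these data known. Alternatives changed the pseudocount, filter, scaling, row choice, trend, weights, a Y-linked term and the libraries used; scaling to pan-macrophage genes and leaving out microglia 1 to 3 were added after seeing the data.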

Additional observations from a re-analysis of the deposited data

Results flagged for a closer look

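In 118 groups of 4 libraries, for the 5 genes and the named genes, the library farthest from the others was checked by its gap to the nearest other over the whole range (Dixon's 95% critical value). For normally distributed values chance sets apart about 1 in 20 such groups. That rate need not hold for FPKM, where any value above 0 is flagged if the others are 0. In all, 10 were found here, none of them in Tmem119, Fcrls, Olfml3, Siglech or Cx3cr1. In macrophage 6, Fcgr3 was at 405 FPKM (123 to 148 in the other 3), Ski at 31.4 and Ctsl at 95.2, all above the rest of the group. Macrophage 7 held Sall1 at 0.0352 FPKM and macrophage 8 held Gpr56 at 0.231 FPKM, with the other 3 listed at 0. In microglia 3, Hcst was at 110 and Hba-a1 at 1407 FPKM. In microglia 4, Olfm1 was at 5.73 and Glul at 67.6 FPKM, and in microglia 2 Lrrc33 was at 51.7 FPKM.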

How the results depend on the processing

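No paired analysis was possible because the microglial libraries are numbered 1 to 4 and the macrophage libraries 5 to 8, with no number in common. The 219 called genes (154 higher and 65 lower in macrophages) became 136 with a pseudocount of 0.1 FPKM, 50 with no filter on low values, 132 with a filter of 5 FPKM, 336 with equal FPKM sums, 1075 with array weights, 25 with a Y-linked term, 808 with scaling to pan-macrophage genes (738 and 70) and 54 without microglia 1 to 3. They were 163 and 111 with upper-quartile scaling, 136 and 110 with median-of-ratios scaling and 171 and 149 with quantile normalization. Leaving out each library in turn gave 119 (macrophage 8) to 258 (macrophage 7), with 122 without macrophage 5 and an even split of 78 and 79 without macrophage 6.

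Siglech kept a negative difference in every setting run but lost its call with a pseudocount of 0.1 FPKM (-3.20), no filter (-2.79), a Y-linked term (-2.70) and without microglia 1 to 3 (-2.62); leaving out each library in turn gave -3.22 to -2.43, and the call was lost without microglia 1 or 3 or macrophage 5, 7 or 8. Array weights called Fcrls (-1.46), Olfml3 (-1.62) and Cx3cr1 (-1.10), and the exact permutation test put Olfml3 (-1.33) at 0.0286. Leaving out each library gave -1.15 to -0.49 for Fcrls, -1.54 to -0.98 for Olfml3 and -1.18 to -0.53 for Cx3cr1, all uncalled. Tmem119 changed sign with scaling to pan-macrophage genes (0.34), and its range on leaving out each library was -0.55 to 0.043. The ratio of Fcrls to Cx3cr1 had differences of -0.55 to 0.24, and was positive without microglia 2 (0.04) or macrophage 5 (0.05), 6 (0.03) or 8 (0.24). Some settings hold another number of genes or libraries, and the cause of these changes was not tested. Depth is unknown, so what it limits could not be computed; precision is limited by the 4 libraries per population.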
